A study of Mus musculus with 188 samples.

Results

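The genes described here encode the desmosomal cadherins Dsc1, Dsc2, Dsc3, Dsg1a, Dsg1b and Dsg3, the plaque proteins Jup, Pkp1 and Dsp, and the desmosomal membrane protein Perp. They were chosen by symbol, with earlier results of these data known. Each symbol was found as 1 row, so that 10 of the 49585 gene rows of the count table are members. The table holds single keratinocytes of mouse tail epidermis at postnatal day 20, 94 cells on each of 2 plates. Each cell was sorted into its own well and copied by Smart-seq2, a method that amplifies polyadenylated RNA as full-length cDNA. All cells form 1 group without a treatment or a mutant comparison. The mice were Lrig1-CreERT2/RosaYFP, in which a tamoxifen-inducible Cre under Lrig1 can switch on a yellow fluorescent protein, and cells were taken that lacked CD34, a bulge marker, carried alpha 6 integrin, a basal surface protein, and lacked the fluorescent protein. The gate therefore depends on where and how completely the Cre driver acted. No label names an animal, so the cells count as 1 sample, no p-value was computed, and all spreads are between cells.

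Desmosomes rivet neighbouring keratinocytes together. Desmocollins (Dsc) and desmogleins (Dsg) are cadherins that span the membrane and bind those of the next cell, plakoglobin (Jup) and plakophilins (Pkp) hold their tails, and desmoplakin (Dsp) ties this plaque to the keratin filaments. In epidermis Dsg3 and Dsc3 are known as cadherins of the lower layers, and Dsg1 and Dsc1 as cadherins of the upper layers. Perp, a tetraspan protein and a target of p63 in mouse, is needed for stable desmosomes in stratified epithelia. Krt10, the keratin switched on when keratinocytes leave the basal state, served as the axis along which the cells were ordered.

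Levels are given as CPM, the reads of a gene per 1000000 reads of that cell, leaving out the ERCC spike-ins, synthetic RNAs added to each well. The total over genes ran from 79868 to 1093805 counts per cell (median 369991), and between 5821 and 8720 genes were detected in a cell. Genes expressed strongly in few wells also gave low counts in wells of the same lettered row, taken over both plates, or the same column of a plate. Reads of one well can thus appear in others. The expected share of such stray reads, estimated from genes that few wells expressed strongly, was 2.95% to 50.4% of a cell's reads, with a median of 9.23%. A gene was called above background in a cell at over 3 times its expected stray reads and at least 3 reads. Krt10 had a read in every cell but stood above background in 60 cells. Summed markers of melanocytes, Langerhans cells, T cells, Merkel cells, fibroblasts and endothelial cells averaged 0.00625 to 25.97 CPM over the cells, and the 5 upper hair follicle and sebaceous markers 220 CPM. Cd34, Cd207, Cd3e, Trdc, Krt20, Atoh1, Pdgfra and Cdh5 had no read.

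The 10 genes covered a wide range of abundance. Perp was the most abundant and the 10th highest of all genes by mean CPM. Per kilobase of exon, which allows genes of different length to be compared, mean levels over all cells followed the order Perp (3357 CPM per kb), Pkp1 (245), Dsp (220), Dsc3 (152.8), Jup (104.3), Dsg1a (33.9), Dsg3 (19.1), Dsg1b (7.35), Dsc1 (3.06) and Dsc2 (0.971). Neighbours in this order differed by less than the larger of their SDs between cells, except Perp and Pkp1 (SD 1331 and 121.9 CPM per kb) and Jup and Dsg1a (SD 64.1 and 35.95 CPM per kb).

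**Figure D1:**
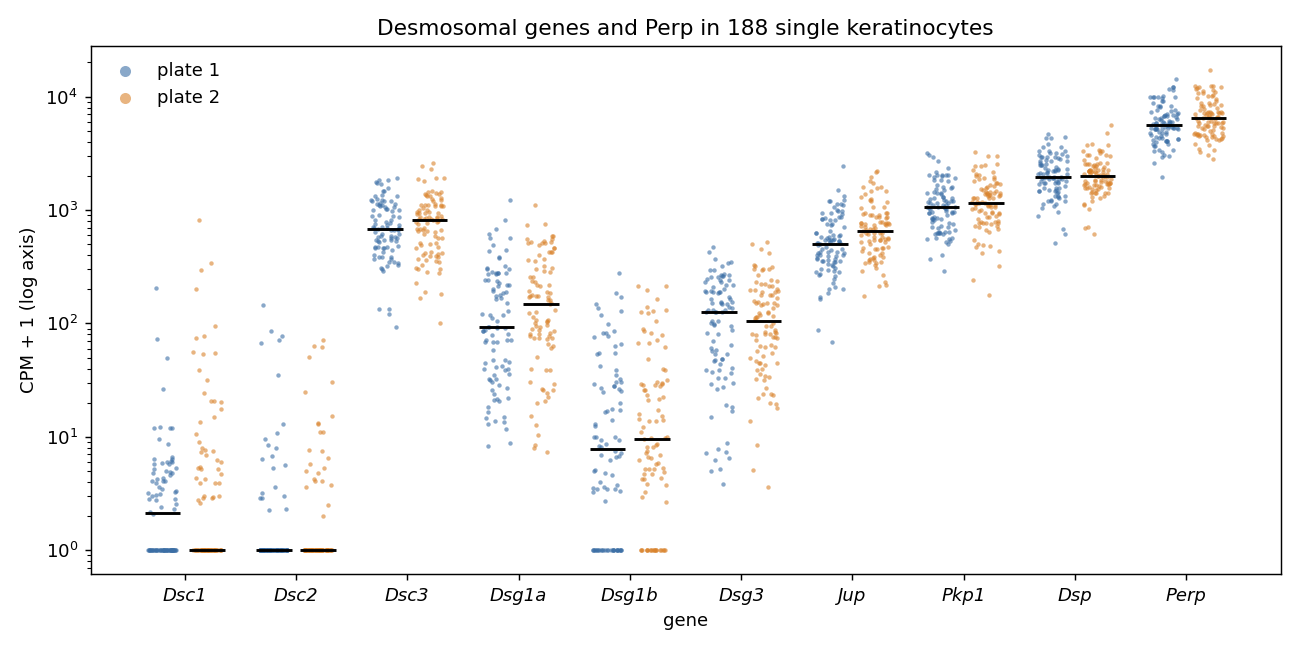
Level of each gene in every cell, as CPM + 1 on a log axis, with plate 1 (94 cells) left of plate 2 (94 cells) for each gene. Points are cells and bars are medians. Perp stands highest, with no cell under 1962 CPM. The medians of Dsc1 and Dsc2 lie at or near 0 CPM on both plates, and the highest cell of Dsc1 is at 820 CPM, on plate 2.

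Among the desmocollins, Dsc3 carried nearly all reads. Dsc3 (chromosome 18, 19960930 to 20002351 on the minus strand of GRCm38) had 92.1 CPM in the lowest cell, a median of 734 CPM and 2582 CPM in the highest cell, and averaged 826 ± 469 CPM (SD over all cells of both plates). Dsc1 (18, 20084184 to 20114871, minus) had a median of 0 CPM and a highest value of 820 CPM, and reached 10 CPM in 27 cells. Dsc2 (18, 20030633 to 20059554, minus), the desmocollin found most widely in simple epithelia and heart, had a median of 0 CPM, a highest value of 145.7 CPM and 10 CPM in 18 cells. A read of Dsc3 was thus found in every cell, and Dsc3 stood above the stray background in 93.1% of cells, against 14.4% for Dsc1 and 11.7% for Dsc2. Of 63217 desmocollin reads, Dsc3 had 97.2% (exact Clopper-Pearson 95% interval 97.1% to 97.3%), Dsc1 2.16% and Dsc2 0.634%. These intervals cover counting error only, since reads amplified by PCR without molecular identifiers are not independent molecules.

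Among the desmogleins, Dsg1a and Dsg3 had similar median CPM over both plates, but in opposite order on each plate. Medians of Dsg1a and Dsg3 were 91.2 and 124.5 CPM on plate 1, and 147.9 and 103.5 CPM on plate 2. Dsg1a (18, 20310811 to 20343350, plus) had 6.42 CPM in the lowest cell, a median of 111.3 CPM and 1230 CPM in the highest, and averaged 193 ± 204 CPM. Dsg3 (18, 20510274 to 20547459, plus) had 2.63, 111.7 and 524 CPM as lowest, median and highest values, and averaged 133.3 ± 108.9 CPM. Dsg1b (18, 20376729 to 20410196, plus), a second mouse copy of the desmoglein 1 gene, had a median of 7.602 CPM and a highest value of 276 CPM, and 46 cells had no read of it. Dsg1a was thus the more uneven of the pair, with a few cells far above the rest. Dsg1a and Dsg1b share sequence: of the 50-base words in their transcripts, 35.02% for Dsg1a and 48.4% for Dsg1b also occur in another Dsg1 copy, and none of Dsg3's do. The split between the Dsg1 copies is therefore uncertain, and their sum is used for the ratio to Dsg3. Dsg1c, the remaining copy, had no read.

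The plaque genes and Perp had a read in every cell, and the share of cells in which they stood above the stray background was 92.6% for Jup, 95.2% for Pkp1, 97.3% for Dsp and 98.4% for Perp. Jup, which encodes plakoglobin (chromosome 11, 100368958 to 100397763, minus), had 66.97, 553 and 2460 CPM as lowest, median and highest values. Pkp1, a plakophilin of stratified epithelia (1, 135871395 to 135919207, minus), had 176.5, 1113 and 3240 CPM. Dsp, which encodes desmoplakin (13, 38151294 to 38198577, plus), had 510, 1974 and 5673 CPM. Perp (10, 18845020 to 18857073, plus) had 1962, 5885 and 17187 CPM. The relative spread between cells was smallest for Dsp and Perp, with a coefficient of variation of 39.5% and 39.6%, followed by Pkp1 at 49.8%, Dsc3 at 56.8% and Jup at 61.4%. It was 81.7% for Dsg3 and 106.1% for Dsg1a. A predicted gene, Gm36938, overlaps Pkp1 on the same strand at a mean of 4.71 CPM, and Gm10129, on the opposite strand at Dsp, had no read.

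The promoter windows of Jup and Dsp are shown because these plaque genes are among those that varied with Krt10 and with each other, and because they are the 2 of 10 members in the RefSeq promoter table (GRCm38.p6, 250 bases before to 50 after the annotated start). Both strands were searched for TGANTCA (AP-1), AACNGGTT (grainyhead), a p53 family motif (CATG, any 6 bases, CATG) and CACCC (KLF), with capitals marking the matches, which on the opposite strand read GGGTG. The Jup window is chr11:100397741-100398040 on the minus strand and the Dsp window chr13:38151044-38151343 on the plus strand.
Jup: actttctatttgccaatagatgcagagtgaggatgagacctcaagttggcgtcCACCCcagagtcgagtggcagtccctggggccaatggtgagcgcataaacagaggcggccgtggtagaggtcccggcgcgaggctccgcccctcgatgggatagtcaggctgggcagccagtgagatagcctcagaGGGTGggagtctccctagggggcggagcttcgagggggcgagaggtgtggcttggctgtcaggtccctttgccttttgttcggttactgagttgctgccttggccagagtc
Dsp: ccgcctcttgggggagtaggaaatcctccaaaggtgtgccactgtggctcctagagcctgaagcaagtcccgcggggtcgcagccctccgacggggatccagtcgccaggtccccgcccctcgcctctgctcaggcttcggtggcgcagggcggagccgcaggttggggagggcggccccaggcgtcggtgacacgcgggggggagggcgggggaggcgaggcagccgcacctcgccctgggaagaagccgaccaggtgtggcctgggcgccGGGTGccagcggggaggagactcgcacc
CACCC occurred at 2 places for Jup and 1 for Dsp, and the other 3 motifs at none. Among all 32851 windows of this length, CACCC was found in 57.5%, TGANTCA in 7.81%, AACNGGTT in 2.09% and the p53 family motif in 0.712%. The GC content was 60.7% for Jup and 73% for Dsp, and the median window had 52.7%. These matches describe the letters of the windows only.

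Low spread in CPM does not mean little variation beyond sampling. Against the spread that spike-in RNAs of the same mean level show, the squared coefficient of variation of Perp was 6.75 times the trend on plate 1 and 8.60 times on plate 2. That of Dsp was 2.55 and 2.51 times, that of Pkp1 2.20 and 2.43 times, and that of Dsc3 1.68 and 2.38 times. Dsg3 (0.617 and 0.744 times) and Dsg1b (0.591 and 0.621 times) did not exceed the spike-in trend on either plate. A value under the trend does not show that a gene varied by sampling alone. Dsg1b had a Spearman's rho with Krt10 of 0.47 on plate 1 and 0.49 on plate 2. The mean levels of Perp and Dsp lay above the highest spike-in mean used (1924 CPM on plate 1 and 1416 CPM on plate 2), so that their trend values are extrapolated and cannot be ranked against the rest.

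To follow the genes along differentiation, cells were ranked by Krt10 and divided into 4 ranges of 47 cells. Range 1 had 185.4 to 576 CPM of Krt10, range 2 had 579 to 879, range 3 had 886 to 2548, and range 4 had 3105 to 45289. Krt10 was above background in 1, 4, 10 and 45 cells of ranges 1 to 4, so that the order within the lower ranges is largely one of low values near background. Median counts were 503608, 344172, 268646 and 377328, and the median expected stray share was 7.37%, 10.7%, 12.7% and 8.67%. Plate 1 supplied 28, 30, 18 and 18 of the cells. The summed 7 basal markers (Krt5, Krt14, Krt15, Itga6, Itgb4, Col17a1 and Trp63) averaged 33924 CPM in range 4 (3341 to 90558) and 73451 CPM in range 1 (31641 to 104228). The 6 suprabasal markers, which include Krt10 and Krt1, summed to 45802 CPM in range 4 and 5936 CPM in range 1. The 5 granular markers summed to 132.2 CPM in range 4 and 52.6 CPM in range 1, and the 4 bulge markers to 48.2 and 7.77 CPM. The part of these differences in the results for single genes was not tested.

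Along this axis, 7 of the 10 genes were higher with Krt10 and none was called lower. A gene was called where each plate gave a Spearman's rho with Krt10 of 0.3 or more (higher) or -0.3 or less (lower), a rule of size and not a test, and cells of 1 plate share library preparation and depth. Those called were Dsg1a, Dsg1b, Dsc3, Jup, Pkp1, Dsp and Perp, 7 of the 9 members that reached 10 CPM in at least 10% of cells. Dsc2 fell short of that filter, and Dsc1 and Dsg3 were not called. Of all 9344 genes that passed the filter, 59 were called higher, which is 0.631%, and 44 were called lower, which is 0.471%. These genes were not matched to the members in level, and most called members were abundant. In simulated data with noise near the spike-in trend, the rule called 3 of 33 genes under 50 CPM with a 5-fold change. At 50 CPM or more it called 12 of 17. The shares of members and of all genes are therefore not like for like. With cells scaled to their spike-in counts in place of their totals, 258 genes were called higher and 0 lower, and the 7 members were among those higher. Krt10 was divided by the same spike-in counts as each gene, so this is not an independent check. The median rho of the 9 members was 0.51, against -0.0046 over all genes tested. Ranked by the plate whose rho was nearer to 0, Dsg1a stood 5th, Perp 8th, Dsg1b 12th, Dsc3 14th, Pkp1 16th, Jup 17th and Dsp 34th of the 9344. The members were chosen with earlier results of these data known, so their shares and ranks are not independent of the data.

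**Figure D2:**
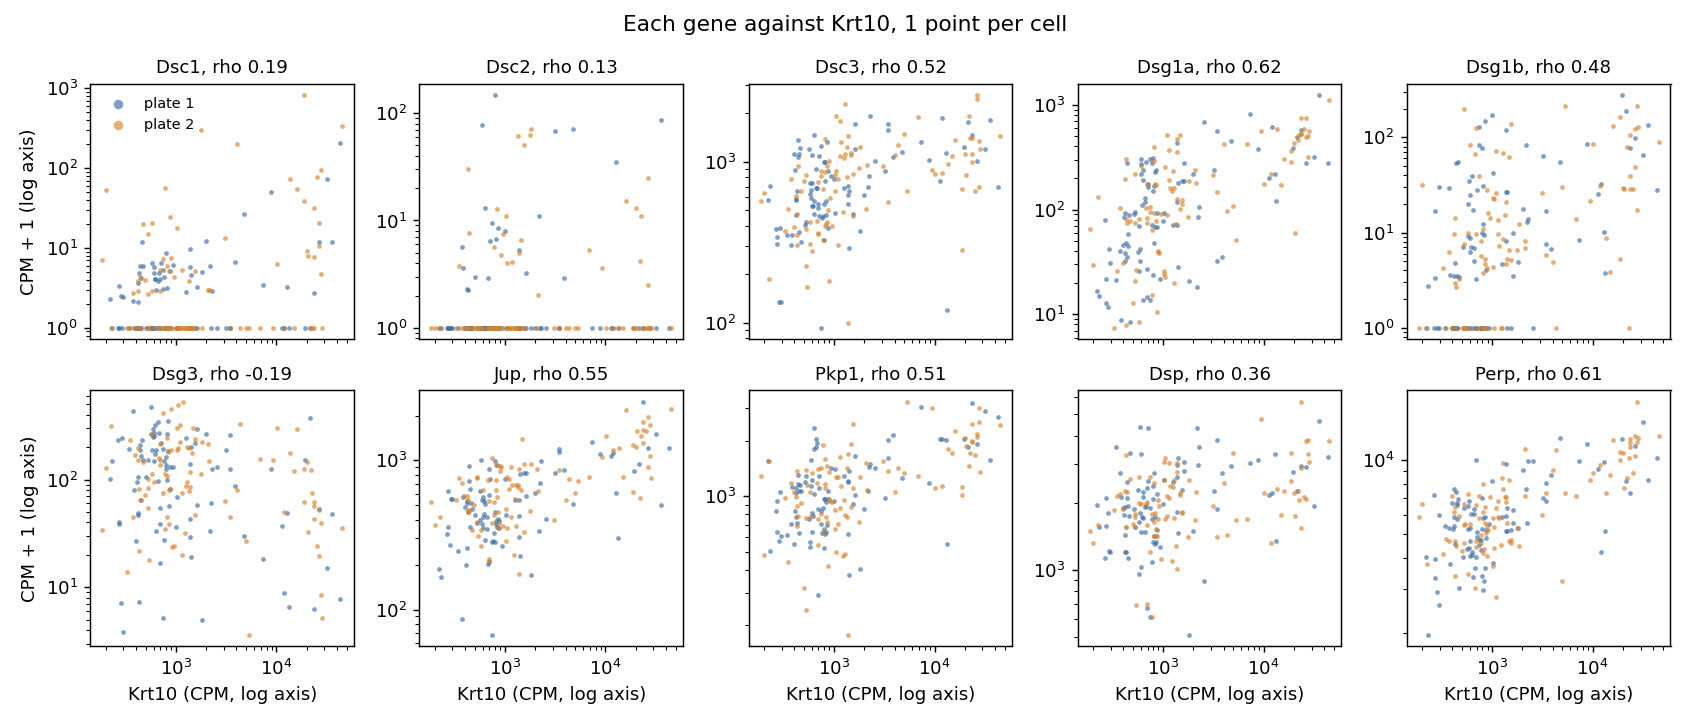
CPM + 1 of each gene against CPM of Krt10, both on log axes, 1 point per cell, with plates in separate colours and Spearman's rho over all cells above each panel. Most genes climb in the cells to the right, above about 3105 CPM of Krt10. Dsg3 does not: its median is 52.6 CPM in the 47 cells of highest Krt10 and 103.7 CPM in the 47 of lowest.

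Dsg1a had the largest fold along Krt10 among the members with a read in every cell, and stood above the stray background in 25, 34, 27 and 42 of 47 cells of ranges 1 to 4. In Krt10 range 4 it had a lowest value of 31.4, a median of 383 and a highest value of 1230 CPM, against 6.42, 40.98 and 305 CPM in range 1. Of the 47 cells of range 4, 45 lay above the median of range 1 and 28 above its highest cell, so the ranges overlapped in the lower part of range 4. Means over ranges 1 to 4 were 63.8, 139.3, 166.3 and 401 CPM, so Dsg1a was already higher in range 2. Range 4 was 6.29 times range 1 (7.73 times on plate 1 and 4.93 times on plate 2), and rho with Krt10 was 0.58 on plate 1 and 0.65 on plate 2 (n = 94 cells each). Dsg1b followed at a lower level, with 60.4 ± 65.9 CPM in range 4 and 10.9 ± 30.5 CPM in range 1 (SD, n = 47 cells each), and rho of 0.47 and 0.49 on the plates. It took 14.4% of the Dsg1a and Dsg1b reads in range 4 and 12.2% in range 1, a split that their shared sequence leaves uncertain.

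Dsg3 was not called, and its mean was lowest where Krt10 was highest. It had a lowest value of 2.63, a median of 52.6 and a highest value of 372 CPM in range 4, against 2.83, 103.7 and 475 CPM in range 1. The ranges overlapped almost completely, and only 16 of 47 cells of range 4 lay above the median of range 1. Means over ranges 1 to 4 were 131.7, 152.6, 158.4 and 90.4 CPM, so range 4 had the lowest mean and ranges 1 to 3 lay close together. Its rho was -0.21 on plate 1 and -0.18 on plate 2, which the rule did not call. Within the 47 cells of range 4, an analysis added after the data were seen, rho between Dsg3 and Krt10 was -0.44 on plate 1 (18 cells) and -0.47 on plate 2 (29 cells). With both Dsg3 and Krt10 scaled to spike-in counts in place of the cell's own total, rho over all cells was 0.04. The fold of Dsg3 in range 4 over range 1 was then 0.786 in place of 0.686.

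The desmoglein switch was measured inside each cell as log2((Dsg1a + Dsg1b + 1)/(Dsg3 + 1)), a ratio that does not depend on the cell's total except through the added 1. Its medians over Krt10 ranges 1 to 4 were -0.74, 0.09, 0.34 and 2.42. Reads of Dsg1a and Dsg1b exceeded those of Dsg3 in 14, 25, 26 and 43 of 47 cells. Since the genes differ in exon length, the ratio was also taken per kilobase, an analysis added after the data were seen, and the medians were then -0.42, 0.43, 0.66 and 2.82, with 20, 29, 31 and 44 of 47 cells above 0. How reads shared by the Dsg1 copies were counted is not stated, so which of the genes was the more abundant in ranges 1 to 3 is not read from these values. On both scales the median was highest in range 4. Spearman's rho between the ratio and Krt10 was 0.56 on plate 1 and 0.61 on plate 2. Over both plates it was 0.58, and 0.56 once the 2 cells with the most extreme Krt10 were left out.

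Pooled reads gave the same order. Dsg1a and Dsg1b made up 39.4%, 51.6%, 53.998% and 85.3% of the reads of Dsg1a, Dsg1b and Dsg3 in ranges 1 to 4 (95% intervals 38.1% to 40.8%, 50.3% to 52.9%, 52.7% to 55.3% and 84.6% to 85.9%). The plates differed in range 1, with 32.05% on plate 1 and 47.3% on plate 2, by more than counting error, while in range 4 they had 83.1% and 86.4%. Ranges 2 and 3 differed by less than the plates did within range 3, where plate 1 had 61.5% and plate 2 had 50.7%. The step from the lower 3 ranges to range 4 was larger than any difference between plates.

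**Figure D3:**
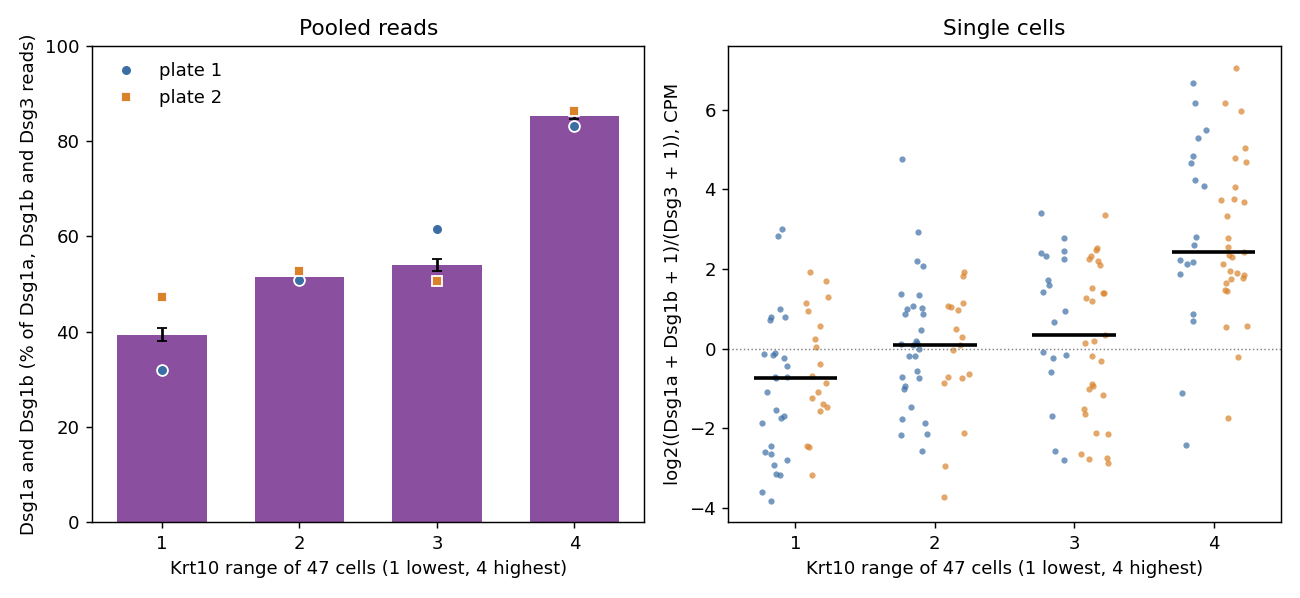
Left, Dsg1a and Dsg1b as a percentage of Dsg1a, Dsg1b and Dsg3 reads pooled over 47 cells in each Krt10 range (bars, with exact 95% intervals for counting error) and on each plate (points). Right, the log2 ratio of Dsg1a and Dsg1b to Dsg3 in each cell, with bars at the medians -0.74, 0.09, 0.34 and 2.42. The largest step lies between the third range and the highest.

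Among the desmocollins, Dsc3, which is known from the lower layers, was higher in cells with more Krt10. It had a lowest value of 119.5, a median of 1108 and a highest value of 2582 CPM in range 4, against 132.9, 471 and 1363 CPM in range 1. Of the 47 cells of range 4, 45 lay above the median of range 1. Means over ranges 1 to 4 were 567, 661, 889 and 1185 CPM, each above the one before, and range 4 was 2.09 times range 1. Spearman's rho was 0.46 on plate 1 and 0.59 on plate 2.

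Dsc1 was found in few cells and mainly at the top of the Krt10 axis. It reached 10 CPM in 17 of 47 cells of range 4, against 5, 2 and 3 cells in ranges 1, 2 and 3, and 17 cells of range 4 stood above the stray background. Its mean was 46.5 ± 132.2 CPM in range 4 and 3.64 ± 8.64 CPM in range 1, while the medians were 3.70 and 1.08 CPM, so a few cells made the difference. The share of desmocollin reads held by Dsc1 was 4.81% in range 4 and 0.672% in range 1, and within range 4 it was 1.68% on plate 1 and 6.61% on plate 2. A single cell of plate 2, picked out after its value was seen, held 511 of the 1124 Dsc1 reads of range 4 and was the 1 cell of all in which Dsc1 exceeded Dsc3. Without it the mean of range 4 was 29.6 CPM and the share of desmocollin reads 2.73%. Dsc1 had a read in 93 cells and Dsc2 in 47, so in most cells the ratio of either to Dsc3 was set by Dsc3 and the added 1. The rho of these ratios with Krt10, -0.05 for Dsc1 and -0.22 for Dsc2, therefore says nothing on a switch among desmocollins. Dsc2 averaged 7.03 ± 18.97 CPM in range 4 and 1.08 ± 4.41 CPM in range 1, and its fold was 33.7 on plate 1 and 1.22 on plate 2, so no size can be given for it.

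The plaque genes, whose Jup and Dsp promoter windows are printed above, were higher at the top of the axis, by smaller folds than Dsg1a and Dsg1b. Jup had a lowest value of 300.1, a median of 1108 and a highest value of 2460 CPM in range 4, against 85.8, 470 and 1006 CPM in range 1, and 27 cells of range 4 lay above every cell of range 1. Pkp1 had 553 (lowest), 1881 (median) and 3240 (highest) CPM in range 4, against 240, 883 and 1547 CPM in range 1, and 32 cells lay above every cell of range 1. For both genes most cells of range 4 thus lay above all of range 1. Dsp overlapped far more, with 1316 (lowest), 2300 (median) and 5673 (highest) CPM in range 4 against 697, 1783 and 3562 CPM in range 1, and 7 cells above every cell of range 1. With expected stray reads subtracted, rho between Dsp and Krt10 was 0.28 on plate 1 and 0.41 on plate 2, and with Krt1 as the axis 0.33 and 0.24, so that Dsp was not called under either. The folds of the means were 2.33 for Jup, 2.10 for Pkp1 and 1.43 for Dsp. Means of Jup over ranges 1 to 4 were 482, 474, 605 and 1124 CPM and those of Pkp1 894, 1065, 1082 and 1877 CPM, so most of each difference lay between range 3 and range 4.

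Perp had the most cells of range 4 above every cell of range 1, 36 of 47. It had a lowest value of 3251, a median of 9567 and a highest value of 17187 CPM in range 4, against 1962, 5311 and 7673 CPM in range 1. By cells above the median of range 1 it had 44, against 46 for Pkp1 and 45 for Jup. Means over ranges 1 to 4 were 5174, 5164, 6307 and 9564 CPM, so ranges 1 and 2 did not differ beyond their spread. The fold was 1.85, with 1.77 on plate 1 and 1.90 on plate 2, and rho was 0.50 and 0.68.

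The relation with Krt10 was weaker among the cells of ranges 1 to 3. In these cells, taken apart after the data were seen, only Dsg1a was still called, at 0.41 on plate 1 and 0.39 on plate 2. Dsc3 had 0.27 and 0.49, Perp 0.23 and 0.25, Jup 0.15 and 0.21, Pkp1 0.19 and 0.10, and Dsp 0.16 and 0.14. In these cells 8 genes of all tested were called higher and 0 lower by the same rule of size, against 59 and 44 over all cells. Krt10 spans less in ranges 1 to 3 and stood above background in 1, 4 and 10 of their cells. A lower rho can follow from the split itself, which was not tested. With the expected stray reads subtracted as well, no member was called among the lower 3 ranges, and Dsg1a had 0.22 on plate 1 and 0.36 on plate 2. The desmoglein ratio had a rho of 0.30 over these cells, and 0.18 with stray reads subtracted. Within the 47 cells of range 4 alone, Perp had a rho of 0.29 on plate 1 (18 cells) and 0.75 on plate 2 (29 cells). Dsg1a had 0.24 and 0.65, Jup 0.18 and 0.60, Pkp1 0.29 and 0.43, Dsp 0.18 and 0.45, Dsc3 -0.01 and 0.29, Dsg1b 0.50 and 0.41, and the desmoglein ratio 0.55 and 0.63. Dsg1b was the 1 member called higher there and Dsg3 the 1 called lower, while 1.39% of all genes tested were called higher and 2.28% lower. Plate 2 had the higher value for Perp, Dsg1a, Jup, Pkp1, Dsp and Dsc3.

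Summed by role and per kilobase, all 3 classes were higher in range 4. Desmocollins summed to 230 CPM per kb in range 4 and 105.9 in range 1, Dsg1a, Dsg1b and Dsg3 to 98.8 and 32.8, and the plaque genes Jup, Pkp1 and Dsp to 822 and 444. Desmocollins exceeded these desmogleins in sum in both ranges. The median fold of all genes tested between range 4 and range 1 was -0.10 on the log2 scale. Relative to it the log2 folds were 2.73 for Dsg1a, 2.47 for Dsg1b, 1.32 for Jup, 1.16 for Pkp1 and 1.16 for Dsc3. They were 0.98 for Perp, 0.61 for Dsp and -0.44 for Dsg3. Dsc1 and Dsc2, found in few cells, had 3.45 and 2.04.

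The genes also varied together from cell to cell. Over the 45 pairs of members, rho across all cells had a median of 0.19 and ran from -0.13 for Dsg3 with Perp to 0.53 for Dsc3 with Dsg1a. A rho of at least 0.3 was found in 21 pairs, which are all the pairs among the 7 members called higher with Krt10. Of these, the 15 pairs among Dsc3, Dsg1a, Jup, Pkp1, Dsp and Perp had a median of 0.46. These genes are the members at 10 CPM in every cell, with Dsg1a added. Dsg1b was left out, and its pairs with them had 0.30 to 0.40. The set was drawn from these data, so its median is not independent of the calls. For comparison, the median over all pairs of the 3685 genes with a mean of at least 50 CPM was 0.01, and 0.0590% of those pairs reached 0.3. That set is not matched in level to the genes of the 15 pairs, of which Dsg1a has the lowest mean, 193 CPM. These cells share library preparation and stray reads along lettered rows, taken over both plates, and along columns. Given Krt10, the median of the 15 pairs was 0.23, with 0.32 for Jup with Pkp1, 0.31 for Dsc3 with Dsg1a, 0.30 for Jup with Dsp and 0.29 for Pkp1 with Dsp. The 3 pairs of plaque genes were thus among the closest given Krt10. No median over all pairs of genes was computed given Krt10. Dsg3 reached 0.3 with no other member, and its largest value given Krt10 was 0.19 with Dsc3.

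**Figure D4:**
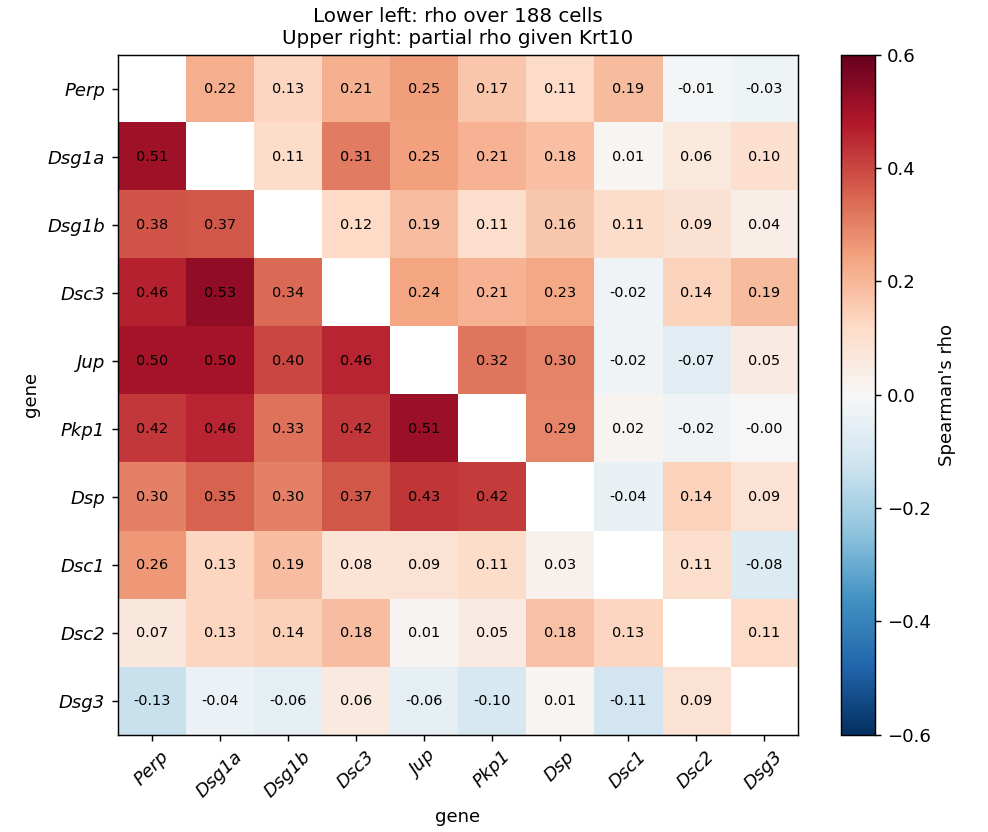
Spearman's rho between each pair of genes over all cells (lower left) and partial rho given Krt10 (upper right), as a colour scale with the value in each square. The block of Perp, Dsg1a, Dsg1b, Dsc3, Jup, Pkp1 and Dsp is red below the diagonal and paler above it, while no square of Dsc1, Dsc2 or Dsg3 reaches 0.3.

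Genes with the most similar patterns were named by rho on the plate nearer to 0, the 3 highest and 2 lowest of 9336 for each member. Calm4, a calmodulin-like protein of skin, Ly6d, a small surface protein, and Gltp, a glycolipid transfer protein, were closest to Perp, with rho over all cells of 0.70, 0.71 and 0.66. Krt10, Ly6d and Calm4 were closest to Dsg1a (0.62, 0.56 and 0.56). Krt10 and Zfp750, a transcription factor of keratinocyte differentiation, led for Dsc3 (0.52 and 0.47, then Ly6d at 0.42) and for Pkp1 (0.51 and 0.46, then Lgals3 at 0.46). Lgals3 (galectin 3), Ly6d and Gltp led for Jup (0.50, 0.54 and 0.47). Stard10, Klf4 and Krt10 led for Dsp (0.40, 0.39 and 0.36). At the other end, genes of basal attachment stood lowest with Perp and Dsg1a. Lamb3, a laminin chain of the basement membrane, had a rho of -0.54 with Perp and -0.47 with Dsg1a, the integrin gene Itgb1 had -0.47 with Perp, and the integrin gene Itga3 had -0.44 with Dsg1a. The lowest with Jup were Sod1, a superoxide dismutase, and Ftl1, a ferritin chain (-0.50 and -0.44), with Dsc3 Fam213a and Dlk2 (-0.41 and -0.37), with Pkp1 Cav1, which encodes caveolin, and Tubb5 (-0.39 and -0.34), and with Dsp Dut and Sod1 (-0.35 and -0.31). No gene passed 0.3 on both plates with Dsg3.

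None of the other desmosome and envelope genes was called. Of 9 (Dsg1c, Dsg2, Dsg4, Pkp2, Pkp3, Pkp4, Ppl, Evpl and Cdsn), 5 passed the filter and 0 of them were called, with a median rho of 0.04. Of all 9344 genes tested, only 0.631% were called higher and 0.471% lower. A count of 0 of 5 therefore does not set these genes apart from genes in general. Pkp3, the other abundant plakophilin, had 0.03 on plate 1 and 0.09 on plate 2, next to 0.46 and 0.55 for Pkp1. Evpl (envoplakin) had 0.13 and 0.31, and Ppl (periplakin) 0.24 and 0.09. Dsg2, a desmoglein of simple epithelia and hair follicle, had -0.19 and -0.23. Not being called does not mean unchanged. Mean folds of range 4 over range 1 were 2.09 for Evpl, 1.31 for Ppl, 1.05 for Pkp3, 0.630 for Pkp4 and 0.453 for Dsg2. Dsg2 averaged 16.2 CPM in range 4 and 35.7 CPM in range 1, with a fold of 0.206 on plate 1 and 0.810 on plate 2. Dsg4, a desmoglein of hair and the outer layers, had no read.

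Among 16 regulators and partners of desmosomes or of keratinocyte differentiation, 13 passed the filter, 4 were called higher and 1 lower, with a median rho of 0.09. Of all 9344 genes tested, 0.631% were called higher and 0.471% lower. The list was chosen with earlier results of these data known, so its share is not independent of them. Zfp750 had 0.64 and 0.67 on plates 1 and 2, Ovol1 0.31 and 0.49, and the grainyhead factors Grhl1 and Grhl3 had 0.31 and 0.42, and 0.37 and 0.30. Trp63, which encodes p63 and belongs to the basal markers, was the one called lower, at -0.52 and -0.39, and Perp, known as its target in mouse, was called higher. Klf4, a factor of barrier formation, had 0.38 and 0.19 and was not called. The adherens junction partners Ctnnb1 (-0.05 and 0.06) and Ctnnd1 (0.16 and 0.25) were not called either.

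**Figure D5:**
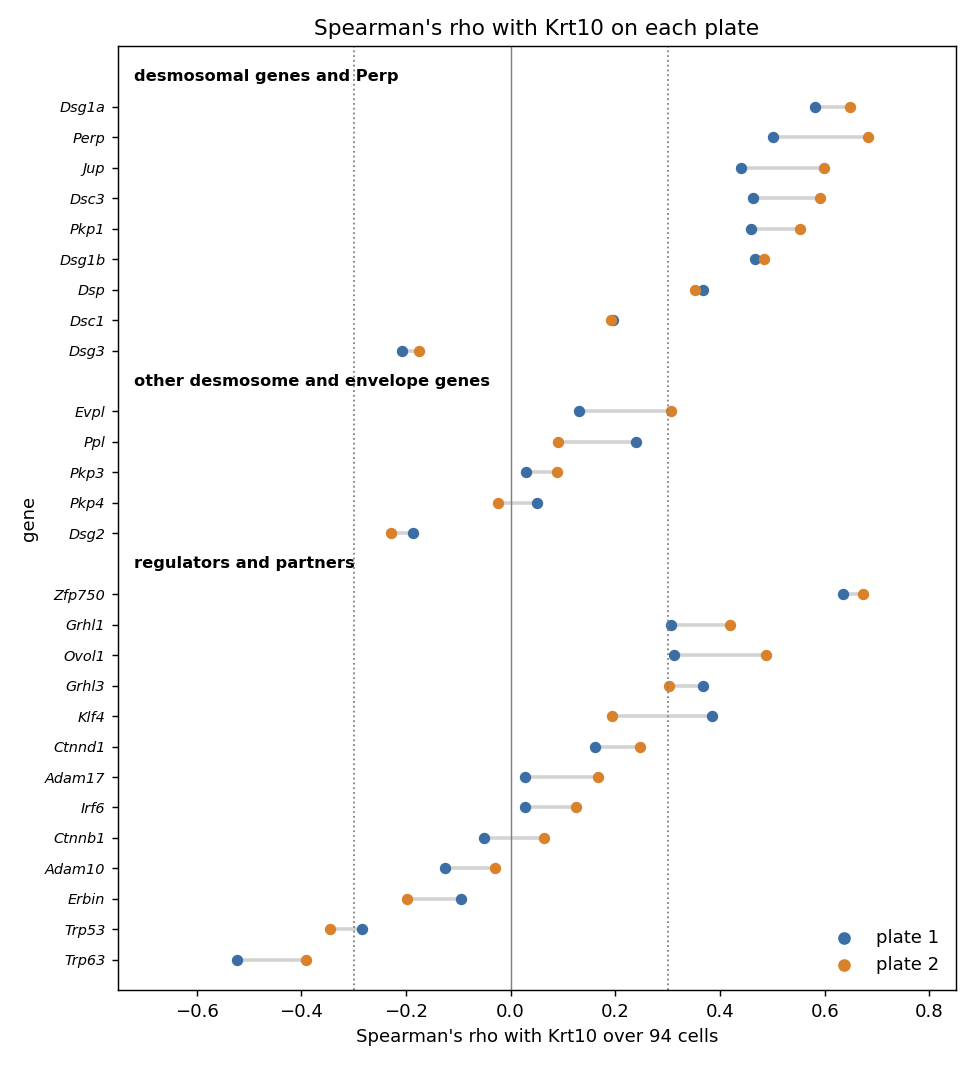
Spearman's rho with Krt10 on plate 1 and plate 2 (94 cells each, joined by a line) for the desmosomal genes and Perp, other desmosome and envelope genes, and regulators and partners that passed the filter. Dotted lines mark -0.3 and 0.3. The members from Dsg1a to Dsp have both plates right of 0.3, no other desmosome gene does, and Trp63 has both plates left of -0.3.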

How the data were processed

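Single cells were taken as the labels give them, 1 cell per sample and 94 on each of 2 plates. The authors deposited raw read counts per gene, whole numbers without normalization, in 1 table of 49585 gene rows and 92 spike-in rows. Per the submitters' processing notes, cutadapt 1.13, STAR 2.5.2b, HTSeq 0.6.0 and GRCm38 were used. The sources used here do not give their order, parameters, strand setting or annotation release. Reads of a gene and of one overlapping it therefore cannot be told apart.

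The members and gene lists were chosen with earlier results of these data known. Symbols were matched to 49326 identifiers without their version, and positions come from GENCODE M21. CPM were computed here from the total of a cell over gene rows, and used as log2(CPM + 1). All 188 cells passed at least 50000 counts, 1500 genes and a limit of 15% mitochondrial counts. Wells received 1 cell each and doublets were not called.

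Spearman's rho was computed on each plate, and a gene was called at 0.3 or beyond on both plates. Genes had to reach 10 CPM in at least 10% of cells. No test was made, since cells are not replicates and the design holds 1 sample. The rule was tested on simulated data of the Krt10 relation, with changes given over 2 SD of the axis. Among genes at 50 CPM or more it called 0 of 19 with a 1.5-fold change, 3 of 18 with 2-fold, 8 of 20 with 3-fold and 12 of 17 with 5-fold. Under 50 CPM it called 0 of 31, 0 of 32, 0 of 30 and 3 of 33. It called 0 of 9145 unchanged genes. The simulated noise was independent between genes and held no stray reads, so this gives no rate of false calls for the real cells. It was set near the spike-in trend for every gene. Real genes lay on both sides of that trend, such as Dsg1b at 0.591 and 0.621 times and Dsc1 at 0.654 and 3.04 times on plates 1 and 2. The share missed among real genes may therefore differ. The rule missed many of the simulated relations, and nearly all under 50 CPM, where the means of Dsc1, Dsc2, Dsg1b and Dsg2 lie. Dsg1b, at a mean of 29.1 CPM, was called in the real cells. The named genes are the members, the lists given, and for each member at 10 CPM in at least 50% of cells the 3 highest and 2 lowest genes by rho that passed 0.3 on both plates.

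Stray reads were estimated by non-negative least squares from 15 genes, in a form settled after the data were seen. Per 10000 source reads they came to 29.3 for a well in the same lettered row of either plate, 15.3 for one in the same column of the same plate and 0.544 for any other. Rows of the same letter on the 2 plates were treated as 1 row. In this estimate the plates are therefore not separate with respect to stray reads. The spike-in trend is the squared coefficient of variation as a multiple of 1/mean, on 32 spike-ins of plate 1 and 28 of plate 2. Intervals are exact Clopper-Pearson at 95%. Alternatives changed the scale of the cells, the pseudocount, the measure, depth (thinning to 75000 counts), stray reads, the cells, the axis gene and the filter. Tools were Python 3.11.15, numpy 2.4.6, scipy 1.17.1, pandas 2.3.3, matplotlib 3.10.9, R 4.3.3 and scran 1.30.0.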

Additional observations from a re-analysis of the deposited data

How the results depend on the processing

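Under the alternatives listed with the methods, 6 to 8 members were called higher with Krt10, and no called member or ratio changed direction. The share of all genes called moved more, from 0.631% higher and 0.471% lower in the reported setting. It was 2.76% higher and 0 lower with counts per spike-in count, by the rule of size on both plates, 1.23% and 0.888% with a pseudocount of 10 and Pearson's r, 1.134% and 0.920% with Pearson's r alone, and 0.353% and 0.289% with Krt1 as the axis. Without the 47 cells with most stray reads, 0.856% were lower. The spike-in scale put the median log2 fold of all genes between Krt10 range 4 and range 1 at 0.07, against -0.10 by total count, all called genes then being higher, and gave the ratio of Dsc2 to Dsc3 a rho of -0.35. With Pearson's r, Dsc1 was called too, at 0.36, and at 0.40 with a pseudocount of 10. Where the scale of the cells was changed, Krt10 was scaled in the same way as each gene. The cause of these shifts was not tested. Per kilobase of exon, the desmoglein ratio had a rho of 0.58. In alternatives added after the data were seen, the cells of ranges 1 to 3 gave 0.0856% of genes higher and 0 lower, 1 of them a member, and a desmoglein ratio rho of 0.30. With stray reads subtracted these were 0.0535%, 0, 0 members and 0.18. The 47 cells of range 4 alone gave 1.39% higher and 2.28% lower, with 1 member higher. Fewer cells enter these fits. Stray sources set at 2% of the top well gave a median stray share of 12.5%. Depth limits Dsc1 and Dsc2: thinned to 75000 counts, 35 and 26 cells had a read. No paired analysis was possible because all cells form 1 group.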
